A study of Strongylocentrotus purpuratus and Patiria miniata with 14 samples.

Results

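The open chromatin of 2 larvae, the pluteus of the purple sea urchin (Strongylocentrotus purpuratus) at 72 hours post-fertilization (hpf) and the bipinnaria of the bat sea star (Patiria miniata) at 90 hpf, was compared by how its peaks were laid out along each genome. Members were taken by label, as the 2 replicates of sea urchin at 72 hpf and the 2 replicates of sea star at 90 hpf, 4 libraries of the 14 in the series, and together they held 192898 of 652219 listed peaks. All libraries were ATAC-seq of whole wild-type embryos, cultured at 15 °C. Each library came as a peak list called on its own replicate by MACS2, with sea urchin positions on Spur_5.0 and sea star positions on Pmin_3.0. The 2 genomes share no coordinates, so peaks were not matched one to one, and 4 kinds of layout were measured instead: the width of a peak, the distance from its summit to the next summit, the number of summits in windows of 50 kb, and the share of peaks in runs of at least 3 summits within 5 kb.

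In ATAC-seq a transposase cuts DNA that is not wrapped in nucleosomes, and a peak marks a stretch that was cut more often than its surroundings. Such stretches include gene promoters and distal enhancers, the cis-regulatory elements (CREs) to which transcription factors bind. Developmental genes are often surrounded by many CREs, so the spacing of peaks along a chromosome reflects how regulatory DNA is arranged around genes, together with how deeply a library was sequenced and how the peak caller split or joined its signal. The pluteus is the swimming, feeding larva of sea urchins, held up by skeletal rods in its arms, and the bipinnaria is the swimming, feeding larva of sea stars, which has ciliary bands and no such skeleton. In whole larvae, a region open in few cells and a region weakly open in many cells cannot be told apart.

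Some properties of the libraries touch every value that follows. Species, hours of development, genome assembly and library differ together between the larvae and cannot be told apart. The study's own statistics list fewer reads for each pluteus library than for each bipinnaria library, with the fewest in pluteus replicate 2. That library stood apart from its replicate, so many of the differences, though not all, are also given without it. Differences are pluteus minus bipinnaria. With 2 libraries against 2, an exact two-sided permutation test can give no p below 0.333, so none of the measures could pass 0.05. Wherever the 2 pluteus values lay on 1 side of both bipinnaria values, that exact test gave p = 0.333. Scaffold lengths were taken as the end of the last peak in any library of a species, which gave 905 Mb over 192 scaffolds in sea urchin and 606 Mb over 30 scaffolds in sea star. Whether replicates were separate cultures is not stated, and their spread may be technical only.

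The pluteus lists were shorter and covered less of the genome. They held 38010 and 19469 peaks, against 63340 and 72079 peaks in the bipinnaria lists, means of 28740 ± 13111 and 67710 ± 6179 peaks (SD, n = 2 each). The difference of -38970 peaks was -29700 peaks without pluteus replicate 2. Per Mb of spanned scaffold, the pluteus libraries had 42.0 and 21.5 peaks and the bipinnaria libraries 105 and 119 peaks. Pluteus peaks covered 1.01 and 0.450% of the spanned scaffolds, and bipinnaria peaks covered 3.01 and 3.47%. Both pluteus libraries lay below both bipinnaria libraries in each of these values. Because the lists differed in length, layout was also measured on equal numbers of peaks, the 19469 with the smallest p of each library. That was the whole list of pluteus replicate 2 and 51.2% of the list of pluteus replicate 1, against 30.7 and 27.0% of the bipinnaria lists. Equal numbers do not correct for the unequal spans, over which a list of a given length spreads differently. Some measures were therefore also taken at equal peaks per Mb.

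**Figure D1:**
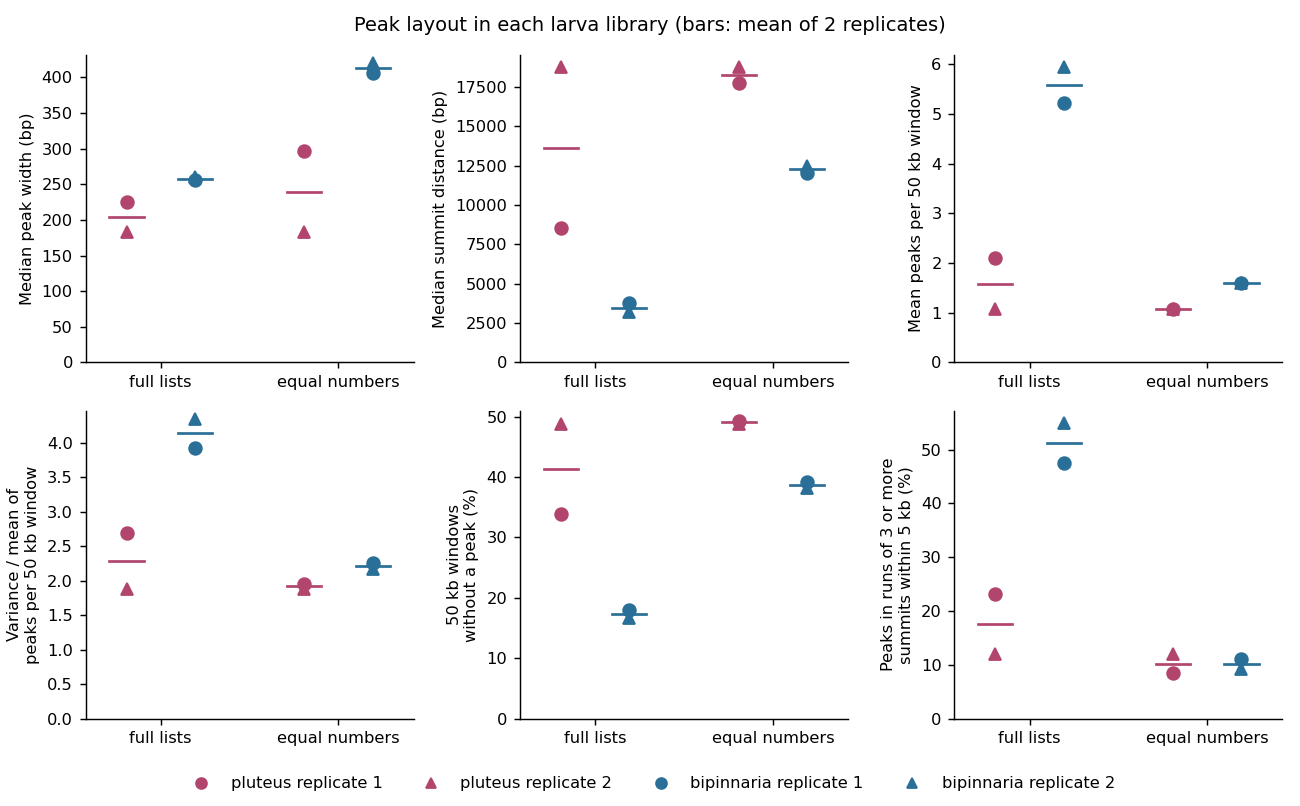
Layout measures (vertical axes, units in the labels) of each larva library on full lists and on equal numbers of peaks; circles are replicate 1, triangles replicate 2 and horizontal bars the mean of 2. Pluteus and bipinnaria libraries separate in all panels on full lists, and in the share of peaks in runs they overlap once peak numbers are equal (8.45 and 11.9% in pluteus, 11.0 and 9.15% in bipinnaria).

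Peaks were narrower in the pluteus. Median peak widths were 225 and 183 bp for pluteus libraries and 256 and 260 bp for bipinnaria libraries, means of 204 ± 29.7 and 258 ± 2.83 bp (SD, n = 2 each). The difference was -54 bp, and -33 bp without pluteus replicate 2. Between single libraries it ran from -77 to -31 bp. At equal numbers of peaks the medians were 296 and 183 bp in pluteus libraries and 406 and 420 bp in bipinnaria libraries, a difference of -173.5 bp that was -117 bp without pluteus replicate 2. These are the strongest peaks of each list. Taken at evenly spaced ranks of p instead, equal numbers of peaks had medians of 224 and 183 bp in pluteus and 256 and 260 bp in bipinnaria, a difference of -54.5 bp. The groups did not overlap in any of these comparisons. Among peaks that overlapped a peak of the other replicate by at least 1 bp, medians were 312 and 231 bp in pluteus and 282 and 301 bp in bipinnaria, so on full lists the groups overlapped when only peaks found in both replicates were kept.

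The width distributions differed at both ends. The lowest possible width is 100 bp, the length to which the caller extended each read, and 9.85 and 14.3% of pluteus peaks had that width, against 5.73 and 4.85% of bipinnaria peaks. Peaks of at least 500 bp made up 5.81 and 2.61% of the pluteus lists and 10.1 and 10.3% of the bipinnaria lists. At least 1000 bp wide were 15 and 0 pluteus peaks, against 217 and 276 bipinnaria peaks. The widest peak of a library measured 1403 and 955 bp in pluteus, and 1701 and 1830 bp in bipinnaria. Width went with the strength of a peak, the -log10 p that the caller gave it. Among peaks with a -log10 p from 10 to 20, median widths were 282 and 279 bp in pluteus and 285 and 281 bp in bipinnaria, within 6 bp of each other. From 20 to 40 they were 373 and 351 bp in pluteus, and 373 and 364 bp in bipinnaria. From 4 to 6, near the smallest width, medians were 107 and 104 bp in pluteus and 117 and 116 bp in bipinnaria. Larvae parted more from 6 to 10, where medians were 162 and 132 bp in pluteus and 214 and 206 bp in bipinnaria. They also parted among the strongest, at 40 or more, with 449 and 440 bp in pluteus and 483 and 482 bp in bipinnaria. Such strongest peaks were 2.75 and 0.709% of the pluteus lists, against 11.1 and 12.2% of the bipinnaria lists. The caller's p depends on how many reads a library has, and the part of read number in these widths was not tested.

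**Figure D2:**
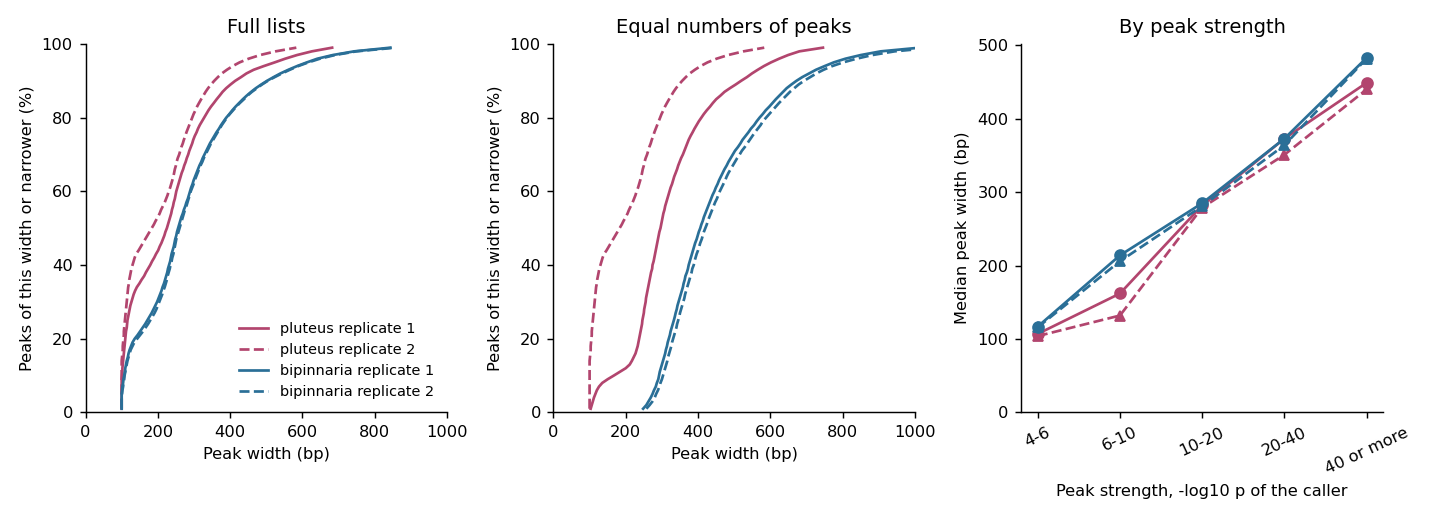
Cumulative share of peaks (%) by width (bp) on full lists and on equal numbers of peaks, and median width (bp) by class of the caller's -log10 p; solid lines with circles are replicate 1, dashed lines with triangles replicate 2. Pluteus curves lie left of the bipinnaria curves over the whole range, whereas at a -log10 p from 10 to 20 the 4 libraries have medians between 279 and 285 bp.

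Neighbouring peaks lay farther apart in the pluteus on full lists and at equal numbers of peaks, but not at equal peaks per Mb. The median distance between neighbouring summits was 8533 and 18787 bp in pluteus libraries and 3783.5 and 3177 bp in bipinnaria libraries, means of 13660 ± 7251 and 3480 ± 429 bp (SD, n = 2 each). The difference of 10180 bp was 5053 bp without pluteus replicate 2. For equal numbers of peaks the medians were 17765.5 and 18787 bp in pluteus, and 12041 and 12504 bp in bipinnaria. That difference was 6004 bp, and 5493 bp without pluteus replicate 2. It was 2369 bp without that library when the other lists were each reduced to 38010 peaks. With equal peaks per Mb the direction turned, with 17765.5 and 18787 bp in pluteus and 18975 and 19347 bp in bipinnaria.

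Distances divided by the mean spacing of each library did not separate the larvae. The mean spacing, the spanned scaffold length over the number of peaks, was 23.8 and 46.5 kb in pluteus and 9.56 and 8.40 kb in bipinnaria. As a multiple of that spacing, the median distance was 0.358 and 0.404 in pluteus libraries, against 0.396 and 0.378 in bipinnaria libraries. The ranges overlapped. With equal numbers of peaks the multiples were 0.382 and 0.404 in pluteus and 0.387 and 0.402 in bipinnaria, again overlapping. The spread of the distances separated the larvae on full lists and among equal numbers of the strongest peaks. The coefficient of variation of the distances (SD over mean) was 2.05 and 1.75 in pluteus and 2.52 and 2.53 in bipinnaria, and at equal numbers of peaks 1.78 and 1.75 in pluteus and 2.2 and 2.16 in bipinnaria. At evenly spaced ranks of p and 20 peaks per Mb it was 1.706 and 1.715 in pluteus and 1.758 and 1.745 in bipinnaria. At 30 per Mb, which pluteus replicate 2 did not reach, pluteus replicate 1 had 1.895, against 1.867 and 1.846 in bipinnaria. The order of the spread thus depended on how lists were matched.

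The classes of distance showed where the larvae differed, and the direction turned at 500 bp. Distances under 500 bp were a larger share of the pluteus lists, 12.7 and 13.9%, against 9.58 and 9.71% of the bipinnaria lists. From 500 bp to 1 kb the order was the opposite, with 4.91 and 2.53% in pluteus and 10.3 and 11.4% in bipinnaria. From 1 to 2 kb the shares were 6.16 and 2.75% in pluteus, against 14.6 and 16.6% in bipinnaria. From 2 to 5 kb they were 12.2 and 5.70% in pluteus and 23.1 and 25.2% in bipinnaria. The pluteus lists thus held a larger share of very close neighbours and a smaller share of neighbours from 500 bp to 5 kb apart. The same turn was seen at equal numbers of peaks, with 6.61 and 13.9% of distances under 500 bp in pluteus and 1.75 and 1.41% in bipinnaria, but 8.68 and 5.70% from 2 to 5 kb in pluteus and 12.7 and 12.3% in bipinnaria. Equal numbers kept the strongest 51.2 and 100% of the pluteus lists, against 30.7 and 27.0% of the bipinnaria lists. How far this sets the shares under 500 bp was not tested. Distances over 100 kb were 12.3 and 12.4% in pluteus and 5.58 and 5.52% in bipinnaria at equal numbers. Groups did not overlap in any of these classes. The classes are fixed in bp and not corrected for density, and mean spacing at equal numbers was 46.5 kb in pluteus and 31.1 kb in bipinnaria. As a multiple of that spacing, the upper quartile of distances was 1.09 and 1.12 in pluteus, against 1.00 and 1.02 in bipinnaria.

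**Figure D3:**
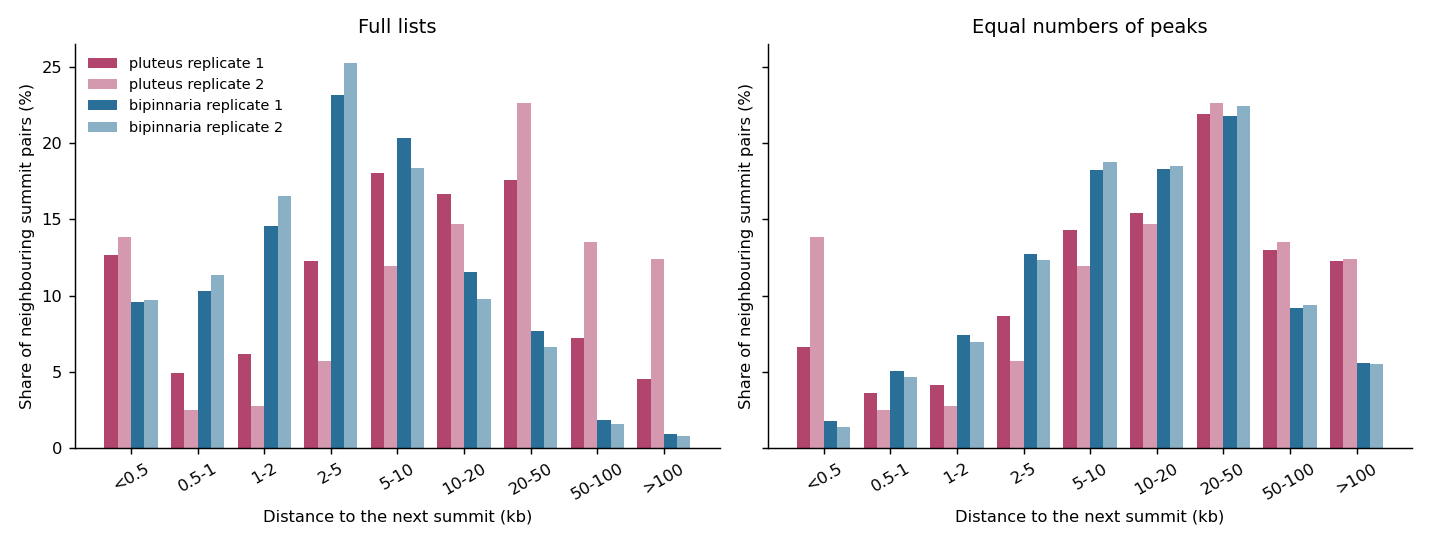
Share of neighbouring summit pairs (%) in each class of distance (kb), on full lists and on equal numbers of peaks, with 1 bar per library. Pluteus bars exceed bipinnaria bars below 0.5 kb (12.7 and 13.9% against 9.58 and 9.71% on full lists), and bipinnaria bars exceed pluteus bars from 0.5 to 5 kb.

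The close pairs, neighbouring summits under 500 bp apart, were 4806 and 2686 pairs in pluteus libraries and 6067 and 6997 pairs in bipinnaria libraries. Their 2 peaks were separated by a median of only 33 and 31 bp from edge to edge in pluteus, and 44 and 46 bp in bipinnaria. Peaks in close pairs were narrow, with medians of 130 and 120 bp in pluteus and 200 and 206 bp in bipinnaria. Peaks outside pairs measured 237 and 210 bp in pluteus and 266 and 270 bp in bipinnaria. Peaks in close pairs were also weaker, with a median -log10 p of 8.43 and 7.85 in pluteus and 8.44 and 8.75 in bipinnaria. Outside pairs it was 9.02 and 8.12 in pluteus and 11.2 and 11.9 in bipinnaria. From the outer edge of the first to the outer edge of the second peak, a pair spanned a median of 439 and 356.5 bp in pluteus, against 551 and 557 bp in bipinnaria. Of the pairs of pluteus replicate 2, 55.9% lay on a single peak of pluteus replicate 1, and of the pairs of pluteus replicate 1, 9.49% lay on a single peak of pluteus replicate 2. The same shares were 31.9% for pairs of bipinnaria replicate 1 and 20.2% for pairs of bipinnaria replicate 2. A part of the close pairs was thus a single peak in the other list of the same larva. In the 6 libraries of the other sea urchin stages, distances under 500 bp were 10.3 to 14.3% of the full lists, and in the 4 libraries of the other sea star stages they were 9.61 to 10.4%. At equal numbers of peaks, such distances were 2.89 to 12.2% in these sea urchin libraries and 1.68 to 2.56% in these sea star libraries.

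Joining entries within 100 bp of each other removed 10.3 and 11.6% of the pluteus entries, against 7.05 and 7.00% of the bipinnaria entries. Distances under 500 bp then fell to similar shares, 2.63 and 2.41% in pluteus and 2.97 and 3.11% in bipinnaria. Those from 500 bp to 5 kb still differed, at 25.9 and 12.5% in pluteus and 51.3 and 56.9% in bipinnaria. Median widths of the joined regions were 244 and 231 bp in pluteus and 268 and 271 bp in bipinnaria.

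Windows of 50 kb held fewer peaks in the pluteus. Their mean was 2.1 and 1.07 peaks in pluteus over 18039 windows, and 5.23 and 5.95 peaks in bipinnaria over 12099 windows. The difference was -4.01 peaks per window, and -3.49 without pluteus replicate 2. Windows without a peak made up 33.9 and 48.8% in pluteus libraries and 18.0 and 16.7% in bipinnaria libraries, a difference of 23.9 percentage points that was 16.5 without pluteus replicate 2. Windows empty in both replicates numbered 5382 (29.8%) in pluteus and 1749 (14.5%) in bipinnaria. Windows with at least 10 peaks were 1.21 and 0.0111% in pluteus, against 18.3 and 24.3% in bipinnaria, and the fullest window of a library held 16 and 11 pluteus peaks, against 29 and 32 bipinnaria peaks.

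With equal numbers of peaks, means of 1.07 in each pluteus library and 1.61 in each bipinnaria library follow from the spans alone. Empty windows made up 49.3 and 48.8% in pluteus and 39.2 and 38.2% in bipinnaria, a difference of 10.4 percentage points. With equal numbers of peaks per Mb in place of equal numbers, it was 0.992 percentage points, with 49.3 and 48.8% in pluteus and 48.4 and 47.7% in bipinnaria. The variance of the window counts over their mean, which is 1 for peaks strewn at random, was 2.69 and 1.89 in pluteus and 3.93 and 4.34 in bipinnaria. At equal numbers it was 1.95 and 1.89 in pluteus, against 2.26 and 2.17 in bipinnaria. The difference of -1.85 on full lists was -1.44 without pluteus replicate 2, and the difference of -0.295 at equal numbers was -0.264 without it. At evenly spaced ranks of p the difference at equal numbers was -0.0121, and the groups overlapped. At equal peaks per Mb, the ratio averaged 1.92 in pluteus and 1.80 in bipinnaria, so its direction rested on how the lists were matched. Counts per window of the replicates correlated with a Pearson r of 0.706 in pluteus and 0.924 in bipinnaria, across windows of 1 genome, which are not independent replicates.

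Peak density differed between scaffolds in both larvae, and the replicates of a larva had the same extremes. Over the 21 sea urchin scaffolds spanning at least 5 Mb, pluteus libraries had 23.6 to 58.4 and 13.2 to 31.1 peaks per Mb. Both were lowest on NW_022145606.1 and highest on NW_022145611.1. Over the 30 sea star scaffolds, bipinnaria libraries had 38.6 to 136 and 44.2 to 160 peaks per Mb, both lowest on NW_024037064.1 and highest on NW_024037072.1.

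Runs of peaks held a smaller share of the pluteus peaks on full lists, and not at equal numbers of peaks. On full lists, 23.1 and 11.9% of pluteus peaks stood in a run, against 47.4 and 54.9% of bipinnaria peaks, means of 17.5 ± 7.92 and 51.2 ± 5.27% (SD, n = 2 each). The difference of -33.6 percentage points was -28.0 without pluteus replicate 2. Runs numbered 2582 and 717 in pluteus and 7430 and 9309 in bipinnaria, and stretches of overlapping runs with a run in each replicate numbered 327 in pluteus and 5529 in bipinnaria. The run with the most summits had 10 and 7 in pluteus, against 21 and 38 in bipinnaria. Runs spanned a median of 2.89 and 1.72 kb in pluteus and 3.88 and 4.14 kb in bipinnaria. In all 4 libraries, peaks in runs were narrower than peaks outside them, with medians of 205 against 231 bp and 130 against 191 bp in pluteus, and 251 against 262 bp and 254 against 267 bp in bipinnaria.

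At equal numbers of peaks, 8.45 and 11.9% of pluteus peaks and 11.0 and 9.15% of bipinnaria peaks stood in runs. The groups overlapped, with a difference of 0.0950 percentage points (exact two-sided permutation test, p = 1.00) and differences between single libraries from -2.59 to 2.78. That difference was -1.64 without pluteus replicate 2 at the same number of peaks, -5.22 without it when the other lists were reduced to 38010 peaks, and -0.850 without bipinnaria replicate 2, so no direction held. Since 5 kb is a smaller part of the mean spacing in a sparser list, lists were also thinned to equal peaks per Mb. At 20 of the strongest peaks per Mb, 7.51 and 11.4% of pluteus peaks stood in runs, against 3.52 and 2.91% of bipinnaria peaks. At 40 per Mb, which pluteus replicate 2 did not reach, the share was 21.8% in pluteus replicate 1, against 16.2 and 14.6% in bipinnaria. At the same density, peaks of the pluteus were therefore in runs more often, the opposite of the full lists. After entries within 100 bp were joined, an alternative applied to this curve with the values known, the share at 10 per Mb was 0.873 and 1.56% in pluteus and 0.0991 and 0.198% in bipinnaria. At 20 per Mb, which pluteus replicate 2 then did not reach, it was 4.86% in pluteus replicate 1 and 3.04 and 2.44% in bipinnaria. At 30 per Mb it was 9.25% in pluteus replicate 1, against 8.58 and 6.93% in bipinnaria. At 20 and 30 per Mb, pluteus replicate 1 was closer to the bipinnaria libraries than with the entries as deposited, when it had 7.51 and 15.7%.

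**Figure D4:**
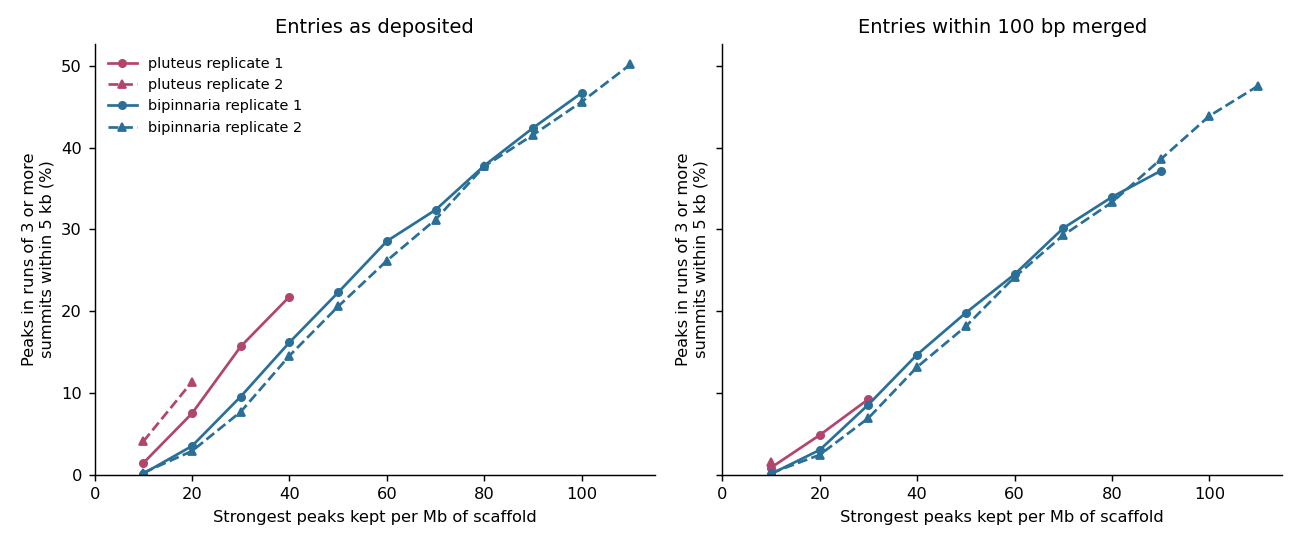
Share of peaks in runs of at least 3 summits within 5 kb (%) against the number of strongest peaks kept per Mb of scaffold, for the entries as deposited and for entries joined within 100 bp. At 20 peaks per Mb of deposited entries, the pluteus libraries (7.51 and 11.4%) lie above the bipinnaria libraries (3.52 and 2.91%), and bipinnaria curves go on to densities that the pluteus lists do not reach.

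Of the pluteus peaks, 36.6 and 76.8% overlapped a peak of the other replicate by at least 1 bp, against 82.4 and 71.6% of the bipinnaria peaks, and these ranges overlapped. By at least 50% of both peaks the shares were 24.1 and 47.1% in pluteus and 69.5 and 61.1% in bipinnaria, which did not overlap. Peaks found again were wider than the others in every library, with medians of 312 against 154 bp and 231 against 110 bp in pluteus, and 282 against 132 bp and 301 against 163 bp in bipinnaria. Widths of neighbouring peaks were hardly related. Spearman's rho between a peak and the next was 0.085 and 0.064 in pluteus and 0.093 and 0.087 in bipinnaria, given as a description across peaks of the same library.

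The densest places were searched in both replicates. In the pluteus, the window with the most summits in its weaker replicate was NW_022145611.1:35850001-35900000 on Spur_5.0, with 11 summits in each replicate. The next, NW_022145611.1:18050001-18100000, had 13 and 10 summits. The third, NW_022145611.1:42150001-42200000, had 15 and 9. These 3 windows lie on the scaffold with the highest peak density. In the 6 libraries of the other sea urchin stages the same 3 windows held 3 to 13, 8 to 14 and 1 to 22 summits, a wide range. In the bipinnaria, the densest window was NW_024037055.1:12000001-12050000 on Pmin_3.0, with 29 and 32 summits. The next, NW_024037065.1:7650001-7700000, had 26 and 26. The third, NW_024037063.1:5000001-5050000, had 27 and 25. In the 4 libraries of the other sea star stages these 3 windows held 24 to 29, 23 to 28 and 17 to 23 summits, the last below both bipinnaria values. All these windows were chosen for high larval counts, so lower counts at other stages are not independent evidence.

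Runs were ranked by the replicate with fewer summits, then by the sum of both. The first pluteus runs were a pair with 6 and 5 summits each. Of these, NW_022145605.1:15698068-15705642 spanned 7.57 kb of a nuclear scaffold. The other, NC_001453.1:786-5814, spanned 5.03 kb of the mitochondrial genome, which carries no nucleosomes. In the bipinnaria, overlapping runs of the replicates were joined into stretches. Ranked in the same way by its longest runs, the first stretch was NW_024037055.1:11999210-12053808, over 54.6 kb. It takes in the densest window and held 34 and 37 summits in all, in 3 and 2 runs. Its longest runs had 21 and 22 summits over 28.4 and 31.1 kb, so the run of 38 summits in bipinnaria replicate 2 lay elsewhere. The widest pluteus peak found in both replicates, NW_022145614.1:489987-491081, was 1090 and 955 bp wide, with fold enrichments over background of 8.55 and 8.04 as the caller gave them. The widest bipinnaria peak, NW_024037056.1:11684421-11686172, was 1701 and 1743 bp wide, and its fold enrichments of 2.84 and 2.72 were below the list medians of 5.0 and 5.02. Of the 5 widest bipinnaria peaks, 3 lay on that scaffold between positions 11286764 and 11688958. The longest interval without a summit in either replicate was NW_022145607.1:2245356-3102843, 857 kb, in the pluteus and NW_024037051.1:13841531-14828664, 987 kb, in the bipinnaria. The 6 libraries of the other sea urchin stages listed 25 summits within the pluteus interval, and the 4 of the other sea star stages listed 4 within the bipinnaria interval. These intervals were chosen for having no summit in the larva, so other stages could not hold fewer. No annotation used here places genes on these scaffolds, so the regions are given by position only.

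A direct comparison of places was possible at elements that the study had positioned in both genomes, sequences conserved beyond echinoderms. The part of that list used here had 44 such elements, in 39 separate places of each genome. The study chose them from its own peaks, so that they lie near peaks is not independent evidence. Within 25 kb of an element, pluteus libraries had a median of 5 and 3 summits and bipinnaria libraries a median of 11 and 11. Both pluteus replicates had fewer summits than both bipinnaria replicates at 35 of 44 elements (79.5%), and more at 1 (2.27%). At the other 8 elements the replicates overlapped or were tied. The mean 50 kb window held 2.1 and 1.07 peaks in pluteus and 5.23 and 5.95 in bipinnaria, so fewer summits around an element go with the sparser pluteus lists. Other places cannot be paired between the genomes, so these counts have no background share and are not a result about the elements. Relative to the mean 50 kb window of the same library, elements had 2.51 and 3.01 times as many summits in pluteus, against 2.13 and 1.82 times in bipinnaria. Each count includes any peak on the element itself. That peak adds relatively more to a mean of 2.1 and 1.07 summits per window in pluteus than to 5.23 and 5.95 in bipinnaria. The ratios are therefore not independent evidence, and how far this sets their order was not tested. With equal numbers of peaks, pluteus had fewer summits at 18 of 44 elements and more at 8. The mean window then still held 1.07 peaks in each pluteus library, against 1.61 in each bipinnaria library.

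Of the elements assigned to or flanked by a sea urchin gene with a symbol, 5 are described. At the element of Msx, a homeobox transcription factor that patterns the embryo, NW_022145600.1:17806667-17807802 in sea urchin and NW_024037071.1:9950452-9951850 in sea star, 9 and 7 summits lay within 25 kb in pluteus, against 19 and 20 in bipinnaria. The strongest peak on that element was 468 and 426 bp wide in pluteus and 847 and 1236 bp wide in bipinnaria. The element by gnaq, the alpha subunit of a G protein, had 7 and 2 summits in pluteus, against 12 and 12 in bipinnaria. The others lay at genes that most cells use. At H2A.F/Z, a histone variant, there were 5 and 4 in pluteus and 10 and 11 in bipinnaria. At eef1G, a subunit of translation elongation factor 1, there were 3 and 2 in pluteus and 7 and 7 in bipinnaria. At HMG1, a DNA-bending chromatin protein, there were 6 and 7 in pluteus, against 8 and 8 in bipinnaria. At each of these 5 elements both pluteus replicates had fewer summits than both bipinnaria replicates, as at 79.5% of all elements.

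The strongest peak on an element was listed in all 4 libraries at 22 elements. Its width was lower in both pluteus replicates than in both bipinnaria replicates at 18 of the 22 (81.8%) and higher at 1 (4.55%). Element peaks had median widths of 424 and 335 bp in pluteus and 483.5 and 548 bp in bipinnaria, above the medians of all peaks in every library. The study chose the elements from its own peaks, and the strongest overlapping peak was taken, so the greater width is not independent evidence. Of the element peaks, 48.6 and 37.0% stood in a run in pluteus, against 63.9 and 65.7% in bipinnaria, where the shares of all peaks were 23.1 and 11.9% in pluteus and 47.4 and 54.9% in bipinnaria.

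**Figure D5:**
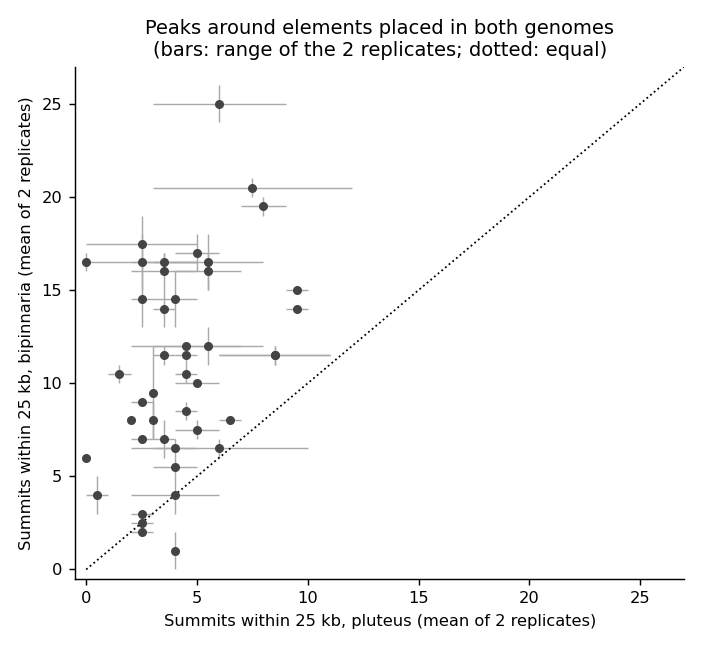
Summits within 25 kb of each of the 44 elements placed in both genomes, pluteus (horizontal axis, mean of 2 replicates) against bipinnaria (vertical axis, mean of 2 replicates); bars span the replicates and the dotted line marks equal numbers. Most points lie above the line, and at 35 of 44 elements both pluteus replicates have fewer summits than both bipinnaria replicates.

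Libraries of the other stages were measured in the same way. In the 6 libraries of the other sea urchin stages, median widths on full lists were 129 to 241 bp and shares in runs 11.3 to 31.9%, ranges that hold both pluteus values. In the 4 libraries of the other sea star stages they were 250 to 256 bp and 44.3 to 49.1%, and bipinnaria replicate 2, with 260 bp and 54.9%, lay above both ranges. At equal numbers of peaks, empty windows made up 49.1 to 50.2% in the other sea urchin libraries and 38.4 to 38.7% in the other sea star libraries, beside the pluteus values of 49.3 and 48.8% and the bipinnaria values of 39.2 and 38.2%. Pluteus replicate 2 lay outside the full-list ranges of the other sea urchin libraries in other measures. These ranges were 25462 to 56853 peaks, 5983 to 13778 bp of median distance and 24.4 to 43.6% empty windows. Its variance over mean of window counts, 1.89, was also below their 2.11 to 3.26. At equal numbers, shares in runs of 11.0 and 9.15% in bipinnaria lay below the 11.1 to 11.7% of the other sea star libraries.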

How the data were processed

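ATAC-seq of whole embryos was used as deposited, as peak lists of 4 larva libraries, with the lists of the other 10 libraries for context. Per the study's methods, the authors aligned reads with Bowtie2, removed duplicates with SAMtools, offset read starts by +4 or -5 bp, kept inserts under 130 bp and called peaks with MACS2 on each replicate. The caller's extension of 100 bp sets the smallest width. The deposited columns used were start, end and summit offset. Peaks were ranked by the -log10 p-value of the authors, and their -log10 q-value was used as a stricter filter in 1 alternative. The authors' fold enrichment, a ratio over local background, was used as an alternative ranking, and the deposited score was not used. The lists hold no read counts, so depth and the precision it gives are unknown from them.

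Computations used Python 3.11.15, numpy 2.4.6, pandas 2.3.3, scipy 1.17.1 and matplotlib 3.10.9. A summit is start plus offset. A peak was in a run if it belonged to 3 consecutive summits spanning at most 5 kb. Only full 50 kb windows were counted. Groups were compared by exact two-sided permutation tests on library values. The functions were tested on simulated data and against bedtools overlaps. Named regions were, per larva, the 5 densest windows, longest runs, widest peaks and longest empty intervals found in both replicates, and elements beside a gene with a symbol; the text names some of them, and 1 item is not reported here. Element positions came from the study's supplementary list, held in part. Members, measures and lists were chosen with earlier results of these data known. Sequences and gene positions were not analysed here. Alternatives were the threshold, merging, replicate overlap, scaffolds, ranking, matching, window size, run definition and each replicate left out.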

Additional observations from a re-analysis of the deposited data

How the results depend on the processing

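Over 14 results, 252 alternatives were computed, of which 16 turned a direction, in 6 results. The share of peaks in runs at equal numbers (0.0950 percentage points) turned to -2.88 with entries within 100 bp merged, to -6.99 for 3 summits within 10 kb, to -4.56 for chains of steps of at most 5 kb, and, chosen after seeing the data, to -2.36 with entries within 500 bp merged and to -2.89 without the mitochondrial genome and with entries within 100 bp merged. Leaving out each replicate in turn gave -5.22 to 1.83, the lowest without pluteus replicate 2 at 38010 peaks, against -1.64 without it at 19469 peaks, added after seeing the data. On full lists the same share turned to 4.28 when a run was 3 summits within 0.5 times the mean spacing. The variance over mean of window counts at equal numbers turned to 0.197 for the strongest by fold enrichment, to 0.114 at equal peaks per Mb and, chosen after seeing the data, to 0.00895 with merging within 100 bp and equal peaks per Mb, a setting that also turned the share of empty windows to -0.811. Median distance at equal numbers turned to -885 bp at equal peaks per Mb. Over mean spacing it turned to -0.00134 at equal numbers and to -0.00563 on full lists. Elements with fewer summits in pluteus (35) became 18 at equal numbers of peaks. The cause of these changes was not tested, except that mean spacing and equal peaks per Mb remove density by construction. The other alternatives kept their direction.

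Replicate numbers were shared between larvae, but the labels state no pairing. Replicate 1 deviated the same way in 0 of 7 full-list measures. These measures go together with list length, so that count cannot show whether a pairing existed. With the replicate block the share in runs on full lists still differed by -33.6 percentage points (exact sign-flip test, p = 0.5, the smallest 2 pairs can give). Merging entries that overlap changed nothing, since none overlap. With 2 libraries a group, no measure could pass 0.05, so these values describe 4 libraries. Lists end at a threshold, and a missing peak is no measure of closed chromatin.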
